A study of Mus musculus with 4 samples.

Results

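The genes described here are 10 transcripts used to recognise microglia in their resting, homeostatic state: P2ry12, P2ry13, Tmem119, Siglech, Gpr34, Sall1, Csf1r, Fcrls, Olfml3 and Selplg. They were taken by symbol from a table of 15586 genes, and all 10 were present. RNA came from microglia, the resident macrophages of neural tissue, sorted from the retina of 2-month-old mice by EYFP fluorescence, with 200 cells in each of 4 libraries. All mice had genotype Cx3cr1CreER/+, in which Cre recombinase is made wherever Cx3cr1 is active and works once tamoxifen is given, and other Cx3cr1-expressing myeloid cells can carry it too. All mice also had floxed alleles of Tak1, the gene for the kinase TAK1 (Map3k7). The 2 control libraries came from Cx3cr1CreER/+;Tak1fl/fl mice given corn oil into the peritoneum on 5 days. The 2 TAK1 knockout libraries came from mice given tamoxifen at 75 mg/kg on 5 days, and their genotype label reads Cx3cr1CreER/+;Tak3fl/fl where the protocol reads Tak1. Only the knockout group received tamoxifen, so drug and deletion cannot be told apart. Whether each library stands for its own animal is not in the labels, and p-values therefore reflect the spread of these 4 libraries alone, which may be technical.

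Microglia are held in their resting state by signals from the surrounding tissue, above all TGF-beta and the ligands of the receptor Csf1r, and by transcription factors such as Sall1 and PU.1. In that state they scan the tissue with fine processes and sense nucleotides through receptors such as P2ry12. After injury or in degenerating retina many of the 10 genes are known to be turned down, which is why they serve as markers of the state as well as of the cell. TAK1 lies downstream of cytokine and innate immune receptors and upstream of NF-kB and the MAP kinases. The series compares control with TAK1-deficient microglia, and for these genes the question is whether the resting programme differs between them.

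Values were FPKM, fragments scaled to transcript length and to library size, so levels can be compared between genes. They summed to 812009 to 969700 per library, and the number of reads was unknown. The table was uneven: in 2514 of 7823 tested genes (32.1%) over 90% of a gene's FPKM came from 1 library, which was the case for 0 of the 10 identity genes. All 10 read 1 FPKM or more in every library, with the exception of Sall1 in control 1, so these transcripts were present in the sorted cells. Markers of other myeloid cells were present too, as given below, mostly in the controls. Purity of the sorted cells is therefore not shown. The targeted gene Map3k7 read 0 to 0.08 FPKM in all 4 libraries and could not check the labels. Cx3cr1, the fractalkine receptor whose locus carries the Cre, read 100.6 and 88.9 FPKM in control libraries and 88.2 and 73 in knockout libraries.

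The identity genes lie on 6 chromosomes, and 2 pairs are close neighbours. Upstream sequence is shown for 3 members: the neighbours P2ry12 and P2ry13, whose levels lay far apart, and Olfml3, whose groups overlapped. Each run is the 250 bases before the transcription start in RefSeq (GRCm38.p6), written 5′ to 3′ on the gene's strand, and capitals mark matches on either strand to GAGGAA, a core of sites for the myeloid factor PU.1, or to TGTGGT, a core of RUNX sites.
P2ry12 (chr3:59262986-59263235, minus strand): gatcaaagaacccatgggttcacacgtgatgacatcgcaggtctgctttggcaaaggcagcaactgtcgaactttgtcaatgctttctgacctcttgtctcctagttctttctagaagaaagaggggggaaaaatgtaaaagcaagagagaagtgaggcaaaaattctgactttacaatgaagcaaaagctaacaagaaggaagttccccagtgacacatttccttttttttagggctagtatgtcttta
P2ry13 (chr3:59210883-59211132, minus strand): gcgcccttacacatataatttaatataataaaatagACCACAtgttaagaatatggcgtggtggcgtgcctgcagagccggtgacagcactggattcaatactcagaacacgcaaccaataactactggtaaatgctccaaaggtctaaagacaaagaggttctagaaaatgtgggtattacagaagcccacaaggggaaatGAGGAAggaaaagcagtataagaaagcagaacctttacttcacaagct
Olfml3 (chr3:103738002-103738251, minus strand): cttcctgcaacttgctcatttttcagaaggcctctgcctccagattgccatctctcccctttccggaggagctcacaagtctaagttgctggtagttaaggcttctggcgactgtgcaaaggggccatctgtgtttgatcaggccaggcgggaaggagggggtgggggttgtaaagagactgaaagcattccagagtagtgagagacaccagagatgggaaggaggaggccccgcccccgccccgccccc
Such windows were found for 6 of the 10 genes, namely these 3, Siglech, Fcrls and Sall1, and not for Tmem119, Gpr34, Csf1r or Selplg. The windows of Fcrls and Siglech precede a start that lies within the gene, with 241 and 30 of their 250 bases inside its annotated span, as do 2 of the 3 windows of Sall1, and are not printed. The 6 genes have 8 windows. GAGGAA occurred in 2 of the 8, those of P2ry13 and Fcrls, and in 23.3% of all 32851 windows. TGTGGT occurred in 3 of the 8, those of P2ry13, Fcrls and Siglech, and in 14% of all windows. TGANTCA, the core of AP-1 sites, was in 0 of the 8 and in 6.75% of all windows. No marked stretch overlapped another. The P2ry13 window has a GAGGAA match 48 to 43 bases before its start, while the windows of P2ry12 and Olfml3 have no match to any of the 3 motifs. A match is a description of the letters, not a binding site.

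As a set, the identity genes read higher in the TAK1 knockout libraries than in control libraries. Both knockouts lay above both controls for 7 of the 10 (P2ry12, Tmem119, Siglech, Gpr34, Sall1, Csf1r and Selplg), below for 0, and the groups overlapped for P2ry13, Fcrls and Olfml3. Among all 7823 tested genes 27.8% lay above and 11.4% below in this way. The median log2 fold change of the 10, knockout minus control on the log2(FPKM + 1) scale, was 1.17, against 0.94 over all tested genes. The set stood above that all-gene median by 0.23, but below it with a pseudocount of 0.1 FPKM (-0.08) and without control 1 (-0.10), and above it by 1.15 after quantile normalization. The median of the 10 was 0.77 without knockout 1 and 1.56 without knockout 2. More genes were detected in the same libraries, with 6055 and 5628 at 1 FPKM or more in knockouts against 4481 and 3777 in controls, and the part of this in the result was not tested.

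The 10 genes together read 2083 and 1790.4 FPKM in control 1 and 2, and 5266 and 3066 FPKM in knockout 1 and 2. Their share of all FPKM was 0.215% and 0.207% in control libraries and 0.64% and 0.378% in knockout libraries. The controls were close to each other in this share, and both knockouts lay above them, knockout 1 further than knockout 2. P2ry12 and Gpr34 made up 64.7% to 71.8% of these sums. Between the controls they went opposite ways, so the closeness does not describe the single genes. In the same libraries, markers of monocytes and dendritic cells took 0.151% and 0.304% in controls and 0.0273% and 0.016% in knockouts, and rod markers 0.334% and 0.485% against 0.958% and 1.54%; their part in the result was not tested. In bulk samples such as these, fewer cells of a type and less RNA per cell cannot be told apart.

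No identity gene passed the moderated test of limma, with p-values adjusted over all 7823 genes by the method of Benjamini and Hochberg, and neither did any other gene (0% called). The smallest adjusted p among the 10 was 0.559, for Selplg. At an unadjusted p under 0.05 there was 1 of the 10, near the 7.7% (602 genes) of the whole table. Without knockout 1 or knockout 2 a lone library stands for that group. The number of genes passing moved widely in those fits, so passing or not passing in them is not read as a result.

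**Figure D1:**
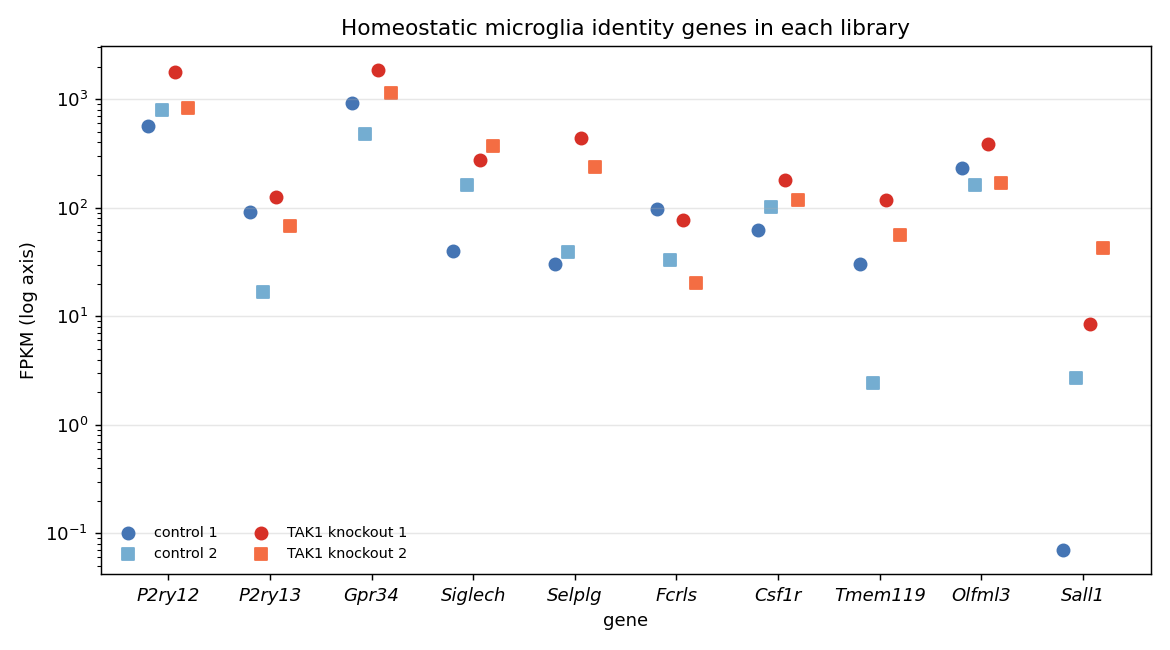
FPKM of the 10 identity genes (log axis) in each of the 4 libraries, controls in blue and TAK1 knockouts in red, replicate 1 as circles and replicate 2 as squares. Both red points lie above both blue points for 7 genes and the groups overlap for P2ry13, Fcrls and Olfml3.

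The nucleotide-sensing receptors come first. P2ry12 (chromosome 3, 59216271 to 59262985, minus strand, GRCm38.p6) encodes the Gi-coupled ADP receptor that draws microglial processes to sites of injury. It read 569 and 790.3 FPKM in control libraries and 1794 and 830 FPKM in knockout libraries. Knockout 2 lay only 1.05 times above control 2, so the groups were separate by a narrow margin, and knockout 1 stood far above the other libraries. The log2 fold change was 0.86 (SE 0.51, adjusted p = 0.698), 0.31 without knockout 1 and 1.42 without knockout 2.

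P2ry13 (chromosome 3, 59207892 to 59210882, minus strand), a second ADP receptor, lies 5.39 kb from P2ry12 with no other protein-coding gene between. It read 92 and 16.9 FPKM in control libraries and 127 and 67.5 FPKM in knockout libraries. Knockout 2 lay below control 1, so the groups overlapped, and the controls differed 5.46-fold from each other. Its log2 fold change of 1.20 (SE 1.26, adjusted p = 0.698) was 0.01 without control 2, 0.75 without knockout 1 and 2.39 without control 1, and 0.77 after quantile normalization. P2ry12 stood 6.18 to 46.9 times above its neighbour in the 4 libraries. Both genes lie inside Med12l on the other strand, which shares 9 exon bases with P2ry12 and 0 with P2ry13 and read 0 to 0.25 FPKM.

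Gpr34 (chromosome X, 13622650 to 13640859, plus strand) encodes a receptor of the same family for lysophosphatidylserine. It read 927 and 481 FPKM in control libraries and 1862 and 1154 FPKM in knockout libraries, the highest of the 10 in 3 libraries and second to P2ry12 in control 2. Both knockouts lay above both controls, the lower knockout 1.24 times above the higher control. The log2 fold change was 1.13 (SE 0.50, adjusted p = 0.677), and 0.66 without control 2. Gpr34 lies within Cask on the opposite strand, with 0 shared exon bases, and Cask read 0.02 to 4.16 FPKM. P2ry12 and Gpr34 together made up 64.7% to 71.8% of the summed level of the identity genes in every library.

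Among the other receptors of the cell surface, Selplg had the widest gap between the groups. Selplg (chromosome 5, 113817798 to 113832528, minus strand) encodes PSGL-1, the ligand through which leukocytes bind selectins, and is also expressed by other leukocytes. It read 30.6 and 38.8 FPKM in control libraries and 439 and 240 FPKM in knockout libraries. The lower knockout stood 6.17 times above the higher control, while replicates differed 1.27-fold in controls and 1.83-fold in knockouts. Its log2 fold change was 3.20 (SE 0.90, adjusted p = 0.559) and ranged from 2.76 to 3.63 when each library was left out.

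Siglech (chromosome 7, 55768154 to 55779448, plus strand) encodes a sialic acid-binding lectin that signals through the adaptor Tyrobp and is shared with plasmacytoid dendritic cells. It read 39.8 and 163 FPKM in control libraries and 276 and 368 FPKM in knockout libraries. The controls lay 4.1-fold apart, yet both knockouts were above the higher one, by 1.7-fold or more. The log2 fold change was 1.97 (SE 0.96, adjusted p = 0.698), 0.96 without control 1 and 2.97 without control 2. The 7 listed markers of plasmacytoid dendritic cells in the table summed to 73.8 and 4.85 FPKM in control libraries and 38.6 and 114 FPKM in knockout libraries. Bst2 read 98.15 FPKM in knockout 2 and under 1 FPKM elsewhere. Cox6a2 read 66.5 and 0 FPKM in control libraries against 20 and 0.15, and Tcf4 read 7.03 and 3.61 against 10.1 and 6.94. Ly6d was under 1 FPKM in all 4 libraries. Their part in the level of Siglech was not tested.

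Csf1r (chromosome 18, 61105572 to 61131139, plus strand) encodes the receptor for CSF1 and IL-34 on which microglial survival depends. It read 62.4 and 102 FPKM in control libraries and 180.3 and 119 FPKM in knockout libraries. The groups were separate, with the lower knockout 1.17 times above the higher control. Its log2 fold change was 0.87 (SE 0.90, adjusted p = 0.698), 0.52 without control 1 and 0.57 without knockout 1. The annotated exons of Csf1r share 873 of 5774 bases with Hmgxb3, on the other strand, which read 0 to 0.9 FPKM.

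Fcrls (chromosome 3, 87250736 to 87263765, minus strand), an Fc receptor-like scavenger receptor gene used to separate microglia from other macrophages, was the 1 member with a lower mean in knockout libraries. It read 97.6 and 33.2 FPKM in control libraries and 76.8 and 20.2 FPKM in knockout libraries. The libraries alternated, with control 1 highest, knockout 1 next, then control 2 and knockout 2. Its log2 fold change was -0.51 (SE 1.29, adjusted p = 0.873), and the sign turned to 0.25 without control 1 and 0.42 without knockout 2. It was -1.28 without control 2, -1.45 without knockout 1 and -1.04 after quantile normalization.

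Tmem119 (chromosome 5, 113793729 to 113800396, minus strand) encodes a membrane protein whose function in microglia is little known but whose antibody staining is widely used to mark them. It lies 17.4 kb from Selplg with no protein-coding gene between them. It read 30.5 and 2.43 FPKM in control libraries and 118.9 and 56.7 FPKM in knockout libraries. Both knockouts lay above both controls, the lower by 1.86-fold, and the controls differed 12.6-fold. The log2 fold change of 3.00 (SE 1.57, adjusted p = 0.698) was 1.40 without control 2 and 4.60 without control 1.

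Olfml3 (chromosome 3, 103735394 to 103738001, minus strand) encodes a secreted olfactomedin-like protein. It read 233 and 161 FPKM in control libraries and 383 and 169 FPKM in knockout libraries. Knockout 2 lay between the controls, so the groups overlapped. The log2 fold change was 0.39 (SE 0.77, adjusted p = 0.817), and it was -0.20 without knockout 1, 0.12 without control 2, 0.66 without control 1 and 0.98 without knockout 2.

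Sall1 (chromosome 8, 89027242 to 89044162, minus strand) is the zinc finger transcription factor of the group and represses inflammatory genes in microglia. It was the lowest or next to lowest member in all 4 libraries, at 0.07 and 2.73 FPKM in control libraries and 8.58 and 42.6 FPKM in knockout libraries. Both knockouts lay above both controls in FPKM, but control 1 was near 0, and with so many genes of the table carried by 1 library, silence is not shown there. The log2 fold change was 3.36 (SE 1.77, adjusted p = 0.698), between 2.26 without knockout 2 and 4.45 without knockout 1. After quantile normalization, which gives every library the same distribution, the groups overlapped for Sall1 at 0.486 and 9.97 against 2.42 and 35.7 FPKM, and its log2 fold change was 1.47; with a pseudocount of 5 FPKM it was 2.02.

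**Figure D2:**
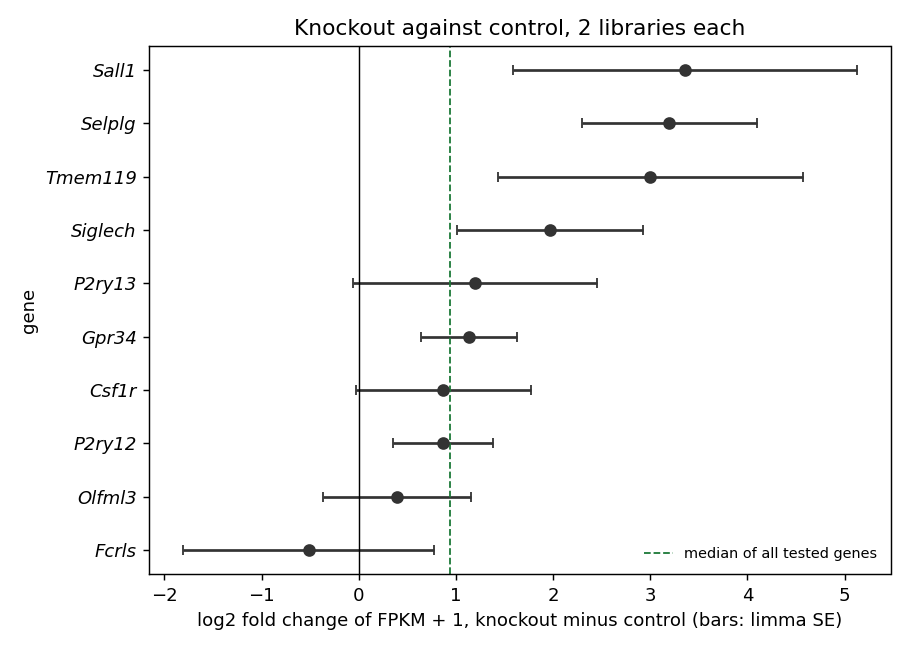
Log2 fold change of FPKM + 1, knockout minus control, for each identity gene, with limma's standard error as bars, 2 libraries per group. The dashed line is the median of all tested genes at 0.94. Selplg, Sall1 and Tmem119 lie furthest to the right and Fcrls alone lies left of 0.

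Rank within a library does not depend on how the library is scaled. P2ry12 was gene 304 and 197 from the top in control libraries and 46 and 157 in knockout libraries, of 15586 genes. Gpr34 was gene 177 and 329 in control libraries and 43 and 97 in knockout libraries. Selplg was gene 2281 and 1944 in control libraries and 300 and 614 in knockout libraries, the widest gap in mean rank of the 10. By rank, 6 of the 10 genes were above in both knockouts and 0 below, all of the 7 named by FPKM other than Sall1, whose rank was 6182 and 3378 in control libraries and 4410 and 2225 in knockout libraries. Among all tested genes 20.6% were above and 18.3% below by rank.

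**Figure D3:**
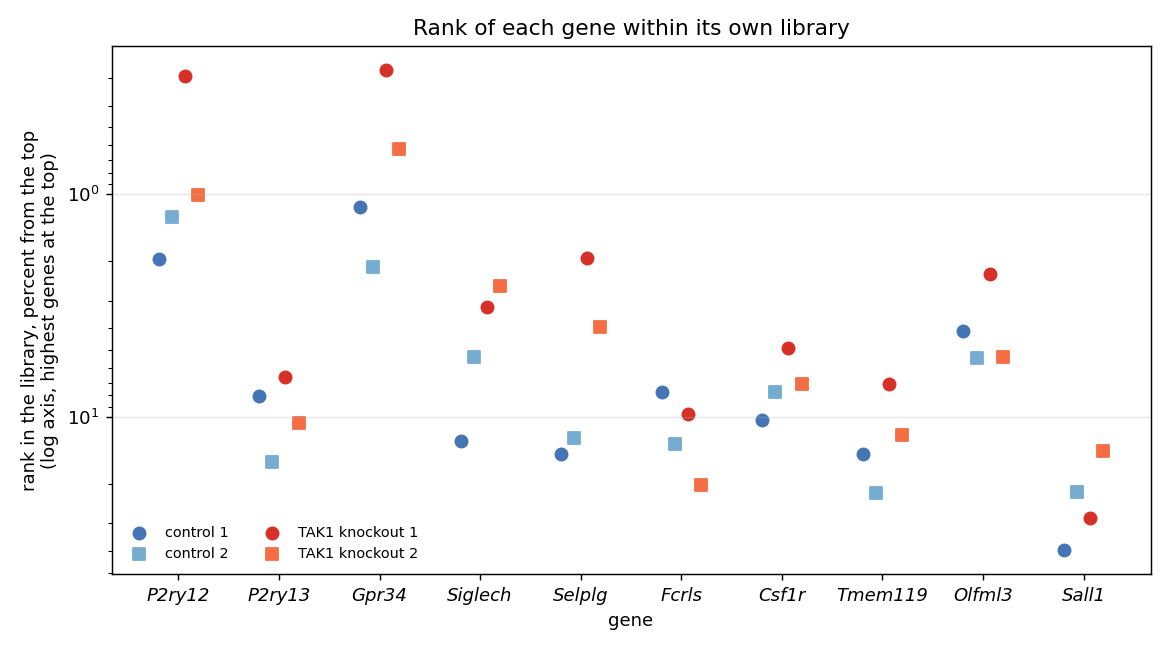
Rank of each identity gene among the 15586 genes of its own library, as percent from the top on a log axis with the highest-expressed genes uppermost, controls in blue and knockouts in red. P2ry12 and Gpr34 lie within the top 2.11% of genes in every library, and Sall1 between 14.3% and 39.7%.

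In the controls the order of mean levels was Gpr34 (704 ± 316 FPKM, SD, n = 2), P2ry12 (679.5 ± 157), Olfml3 (197 ± 51.5), Siglech (101.4 ± 87.1), Csf1r (82 ± 27.8), Fcrls (65.4 ± 45.6), P2ry13 (54.4 ± 53.1), Selplg (34.7 ± 5.83), Tmem119 (16.5 ± 19.9) and Sall1 (1.4 ± 1.88). In the knockouts it was Gpr34 (1508 ± 501 FPKM, SD, n = 2), P2ry12 (1312 ± 682), Selplg (339 ± 141), Siglech (322 ± 64.8), Olfml3 (276 ± 152), Csf1r (149.7 ± 43.3), P2ry13 (97.2 ± 42), Tmem119 (87.8 ± 44), Fcrls (48.5 ± 40) and Sall1 (25.6 ± 24.1). Most neighbours in these orders did not differ beyond their spread. In the controls 7 of 9 neighbouring pairs overlapped, the exceptions being P2ry12 over Olfml3 and, narrowly, Selplg over Tmem119. In the knockouts 8 of 9 overlapped, the exception being P2ry12 over Selplg. Selplg stood at place 8 in control libraries and place 3 in knockout libraries, and Fcrls at places 6 and 9.

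Replicates of the identity genes differed by a median of 1.24 log2 units in control libraries and 0.98 in knockout libraries, against 1.02 and 1.66 for all tested genes and 0.75 and 0.74 for genes at 100 FPKM or more. Knockout 1 was above knockout 2 for 8 of the 10, the exceptions being Siglech and Sall1, whereas control 1 was above control 2 for 5. The difference between knockout replicates was thus mostly in one direction for these genes, while over all tested genes 3828 of 7823 were higher in knockout 1.

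A wider list of 47 tested genes enriched in microglia, without the 10, was chosen with earlier results of these data known, as were the lists that follow. Of these, 20 were higher than both controls in each knockout, 2 were lower, 0 passed the test, and the median log2 fold change was 1.51, beside 27.8%, 11.4% and 0.94 for all tested genes. Among the most abundant, Cst3, the protease inhibitor cystatin C, read 28166 and 21981 FPKM in control libraries and 37408 and 26937 in knockout libraries, which overlapped. Ctss, cathepsin S, read 18010.2 and 19906 FPKM against 32238 and 20338. C1qb, a chain of complement C1q, read 1897 and 835 against 7990 and 3146. The 2 genes below were Aif1, which encodes the calcium-binding protein IBA1, at 2389 and 2318 FPKM against 1246 and 1611, and Cx3cr1; Aif1 was named after its values were seen.

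Regulators of microglial identity, including TGF-beta receptors, Smads and lineage transcription factors, went both ways. Of 21 tested, 6 lay above and 6 below both controls, 0 passed, and the median log2 fold change was 0.52. Over all tested genes these were 27.8% above, 11.4% below and a median of 0.94, which also stand beside the lists below. Bhlhe41, a transcriptional repressor of resident macrophages, read 1395 and 1697 FPKM in control libraries and 377 and 1043 in knockout libraries. Tgfbr1, the type I receptor for TGF-beta, read 5.78 and 33.9 against 154 and 112 FPKM (adjusted p = 0.662). The immediate-early factor Egr1 read 129.7 and 10.7 against 70.4 and 75. The ligand gene Tgfb1 and Smad3 were under 1 FPKM in all 4 libraries.

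Around Csf1r, 3 of 16 tested ligand, adaptor and signalling genes lay above and 2 below, with a median of 0.34. The adaptor Tyrobp, which also serves Siglech, read 1621 and 1843 FPKM in control libraries and 3184 and 1833 in knockout libraries, and Hcst, a related adaptor, read 351 and 92.6 against 207 and 206. Ptpn6, the phosphatase SHP-1, read 15.8 and 24.7 against 78.5 and 54.5. The ligand Il34 was under 1 FPKM throughout. Around P2ry12, of 13 tested nucleotide and adenosine signalling genes, 5 lay above and 2 below, with a median of 1.66. P2ry6, a UDP receptor linked to phagocytosis, read 13.7 and 12 FPKM against 27 and 67. P2rx7, an ATP-gated channel, read 0.51 and 109.7 against 24.2 and 25.6, and the G protein subunit gene Gnai3 read 75.5 and 0.26 against 69.1 and 51.4, so for both the knockouts lay between the controls. P2ry10 read 144 FPKM in control 2 and at most 0.12 in the others.

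Genes of the disease-associated microglial state, often induced as identity genes are turned down, gave a median of 0.47 over 19 tested, with 7 above, 1 below and 0 passing. Fth1, ferritin heavy chain, read 12251 and 9497 FPKM in control libraries and 10344 and 5693 in knockout libraries. Apoe, a lipid carrier, read 4904 and 4968 against 9190 and 1647, and Lyz2, lysozyme, 9227 and 14880 against 2484 and 1894. Cst7, Gpnmb, Igf1 and Ch25h were under 1 FPKM in all 4 libraries. The list summed to 4.58% and 4.74% of FPKM in control libraries and 4.36% and 2.72% in knockout libraries. Lyz2 was the 1 tested gene below both controls, so the lower share does not describe the list as a whole.

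Markers of other cells differed between the groups as well. Of 16 listed monocyte and dendritic cell markers, 11 were in the table, and they summed to 1460.5 and 2626 FPKM in control libraries and 225 and 130 in knockout libraries, the opposite direction to the identity genes. Ccr2 of inflammatory monocytes read 316 and 151 FPKM against 1.81 and 0.59, and Cd209a 503 and 886 against 1.19 and 2.1; Xcr1 was at 0 in all 4. Of 14 border macrophage markers, 12 were in the table, and they summed to 2447 and 2210.1 against 300.2 and 963 FPKM. Of the 11 tested, 2 lay below both controls and 0 above. Ms4a7 made up most of the control sums, at 1614 and 1547 against 189 and 155, while F13a1, Cbr2 and Lyve1 read 118.9, 96.7 and 61.8 FPKM in knockout 2 and under 1 FPKM elsewhere, and Pf4 read 367, 1.04, 0.51 and 303 FPKM over control 1 and 2 and then knockout 1 and 2; Cd163 was under 1 FPKM in all. Rod photoreceptor markers, 20 of 20 in the table, summed to 3235 and 4192 FPKM in control libraries and 7889 and 12498 in knockout libraries. Of the 20, 16 lay above both controls and 0 below, 0 passed the test, and the median log2 fold change was 1.96. Gngt1, the rod transducin gamma subunit, read 1005.5 and 1670.5 against 1542 and 3890, which overlapped, and Pdc read 750 and 937 against 2458 and 2834. Their part in the higher level of the identity genes was not tested.

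Bipolar cell markers stood higher in the knockouts, at sums of 4.44 and 181 FPKM in control libraries against 912 and 842, with 5 of 7 tested members above both controls and 0 below. Cone markers went both ways, with 2 of 7 tested above and 1 below. Gngt2, also expressed by myeloid cells, carried most of their sum at 1787 and 1552 FPKM against 809 and 669, whereas Opn1mw, the middle-wavelength opsin, read 0.66 and 0.81 against 36.7 and 272, and Gnat2, cone transducin, 0.04 and 0.32 against 28.4 and 115. Müller glia markers summed to 6517 and 6298 FPKM in control libraries and 10890 and 3378 in knockout libraries. Their highest member in every library was Apoe, counted in the disease-associated list too, at 4904 and 4968 FPKM against 9190 and 1647. The gap between the knockout sums was mostly that of Apoe, so it does not describe the other Müller glia markers. Endothelial markers summed to 0.2 and 0.6 FPKM in control libraries and 15.9 and 100.1 in knockout libraries. Pericyte markers summed to 0.23 and 1.93 against 156 and 29.4. Lymphocyte markers summed to 0.27 and 105 against 119 and 196, almost all from Cd79b. Neutrophil markers summed to 25.3 and 0.27 against 24.1 and 33.2. The bipolar, endothelial, pericyte and lymphocyte sums were higher in both knockouts than in both controls, while the Müller glia and neutrophil sums were not. The pericyte marker Vtn read 0.12 and 0.16 FPKM against 96.1 and 29.3, and the endothelial marker Flt1 0 and 0.05 against 15.9 and 8.05. Pecam1, Cd3g and Cxcr2 were under 1 FPKM in all 4 libraries.

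**Figure D4:**
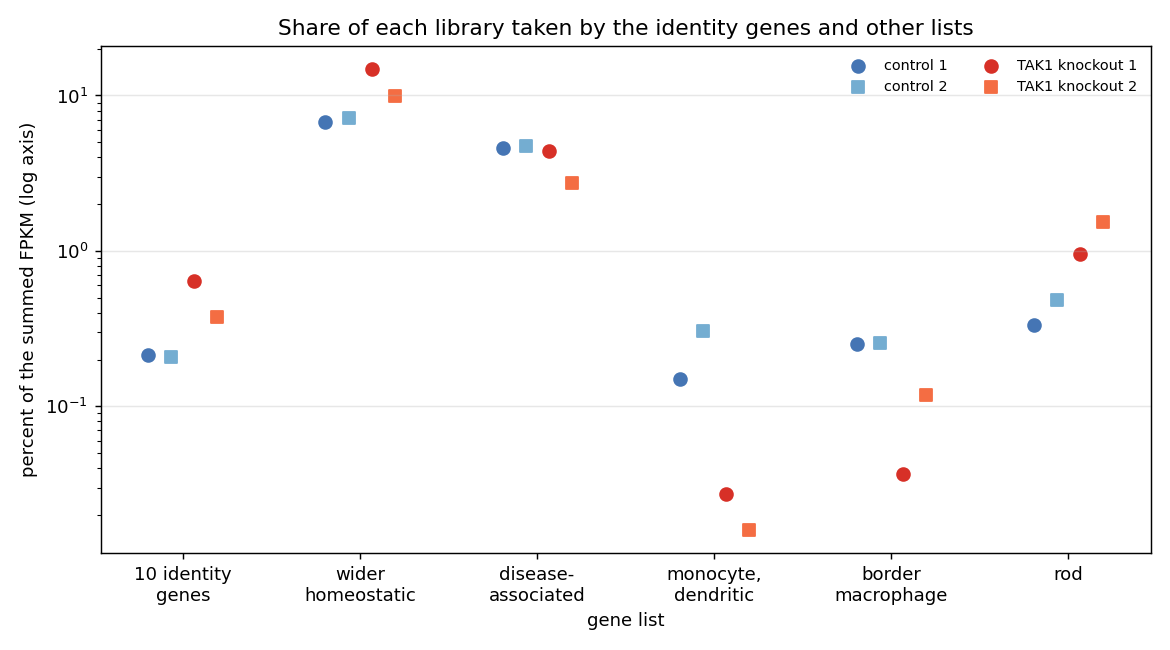
Percent of each library's summed FPKM (log axis) taken by the 10 identity genes, the wider homeostatic list, the disease-associated list, and markers of monocytes and dendritic cells, border macrophages and rods, controls in blue and knockouts in red. Both knockouts lie above both controls for the identity genes (0.64% and 0.378% against 0.215% and 0.207%), the wider list and rods. They lie below for the disease-associated, monocyte and border macrophage lists, the last mostly through Ms4a7. Cst3 and Ctss were the most abundant genes of the wider list, and Cst3 overlapped between the groups. Of the 47 tested genes in that list, 20 lay above both controls and 2 below. In the disease-associated list Lyz2 was the 1 tested gene below both controls, and 7 of 19 lay above.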

How the data were processed

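RNA was measured by sequencing SMART-seq type cDNA of 200 sorted cells per library, amplified by PCR, per the labels' protocols, which name no molecular identifiers. The authors deposited an FPKM table with 1 column per library and 2 decimals, on build mm10 according to the submitters' processing notes. Which aligner, quantifier, annotation and strand setting made it is not given in the sources used here. Low values gave no common step between libraries (6.31% to 8.92% of the ratios fell in the commonest bin), so depth is unknown and no counting interval is given.

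Columns were matched to samples by title. The 7823 genes averaging at least 1 FPKM were transformed to log2(FPKM + 1), and the knockout and control groups were tested with limma (version 3.58.1 in R 4.3.3, moderated test, trended prior variance), with Benjamini-Hochberg adjustment over all tested genes and a threshold of 0.05. The added 1 shrinks the fold changes of low genes. With 2 against 2 an exact permutation test cannot go below p = 0.333, so none was used. The fit was tested on simulated data, whose spread was smaller than measured. Coordinates are from RefSeq (GRCm38.p6) and strands and overlaps from a GENCODE annotation of the same assembly. The 10 members and the 16 other lists were chosen with earlier results of these data known, and lists are described by counts and medians with no test. Named were all members, up to 4 genes per list with the highest mean, genes that overlap a member, Map3k7 and Cx3cr1; a few genes under this rule are not reported here, and other genes, such as those given as under 1 FPKM, were named after their values were seen. Alternatives were other pseudocounts, filters, scalings and variances, a replicate block and each library left out. Figures were drawn with matplotlib 3.10.9.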

Additional observations from a re-analysis of the deposited data

How the results depend on the processing

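No identity gene passed the test under any of the 14 alternatives; at a mean of at least 100 FPKM, which was added after seeing the data, 6 of the 10 were tested. Between 0 and 1311 genes of the whole table passed when each library was left out (701 without knockout 1, 1311 without knockout 2), 5 after quantile normalization, and 35 with the replicate number as a block. The block rested on numbers that the labels do not tie to a shared animal or day, and same-numbered libraries did not deviate together (r = 0.02 across genes). The median log2 fold change of the 10 genes was 1.11 to 1.33 under the other pseudocounts and scalings, and 0.77 to 1.56 when each library was left out. Relative to the median of all tested genes it was 0.23 as reported, -0.08 with a pseudocount of 0.1 FPKM and -0.10 without control 1. It was 0.61 with a pseudocount of 5 FPKM, and 1.15 after quantile normalization, which brought the median of all genes from 0.94 to 0.12. It also moved with the filter, to 1.14 with none and 0.46 at a mean of at least 5 FPKM. At 100 FPKM it was 1.11 for the 6 tested members, where the median of all genes was -0.11. When each library was left out, 7 to 9 members lay above the remaining controls in the remaining knockouts and 0 to 1 below. Among all tested genes in those fits, 42.1% to 45.6% lay above and 21.3% to 27.3% below. Single genes changed sign in 3 cases: Fcrls to 0.25 without control 1 and 0.42 without knockout 2, in a range of -1.45 to 0.42, and Olfml3 to -0.20 without knockout 1, in a range of -0.20 to 0.98. In these fits a lone library is assumed to vary like the other group. After each library was rescaled or quantile normalized, 9 of the 10 log2 fold changes were above 0, as reported. The median over all tested genes was itself 1.06 after scaling to the same summed FPKM and 0.99 after median ratio scaling. In each of these, 6 of the 10 stood above that median. After quantile normalization it was 0.12, and 9 of the 10 stood above it. The cause of these changes was not tested, and the unknown depth limits what can be said of Sall1 and Tmem119, which were low in a control.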
